A study of Mus musculus with 24 samples.

Results

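Livers of wild-type mice of the D2 (DBA/2) strain were compared with livers of wild-type mice of the B6 (C57BL/6) strain, 3 arrays of each, which are 6 of the 24 arrays of the series. The arrays were chosen by the tissue, strain and genotype in their labels, and no measured value entered the choice. The series, on *Hfe*-/- and wild-type mice of both strains, which differ in how readily they load iron, also holds *Hfe*-/- livers and the duodena of all groups. D2 wild-type (D2 WT) and B6 wild-type (B6 WT) mice were males aged 7 weeks, purchased from a breeder, housed in 1 facility on one diet and fasted before they were killed, and 3 mice of each strain were profiled on the Affymetrix Mouse Genome 430 2.0 array, 1 array a liver. The question asked of these arrays is which liver transcripts differ between the strains while *Hfe* is intact.

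Hepcidin, the peptide encoded by *Hamp*, is made by hepatocytes and makes the iron exporter ferroportin be degraded, which lowers the release of iron from the gut and from macrophages. Its transcription follows signals of bone morphogenetic proteins through SMAD factors, in which the HFE protein takes part, and inflammatory signals through STAT3. The mouse has a close copy, *Hamp2*, whose part in iron metabolism is less settled. B6 and D2 are old laboratory strains whose genomes differ at many positions, and their livers have long been used to study inherited differences in drug metabolism and immunity.

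The arrays were read as MAS5 signals, which are linear and share a mean of 100 after scaling, and a difference is always the log2 signal of D2 WT minus that of B6 WT. The median signal was 15.7 to 19.2 on the 6 arrays, so that signals under about 20 lie near background. Arrays of a strain correlated with each other with a mean r of 0.934 to 0.937 over the log2 signals, and with those of the other strain with a mean r of 0.908 to 0.914. The B6 WT arrays and D2 WT 1 shared a hybridization run, while D2 WT 2 and D2 WT 3 were hybridized in 2 other runs with *Hfe*-/- livers. A run is a set of arrays whose recorded hybridization times lay within 15 minutes of the next, since the files name no runs. Run was also fitted as a block, but in the run that held both strains D2 WT 1 was alone on another fluidics station, so that strain and station cannot be told apart within it. B6 WT 3 was washed with another fluidics protocol than the other liver arrays. Defining hepatocyte transcripts were abundant in both strains, the summed signal of 9 markers being 76968 to 80611 in D2 WT and 79376 to 89280.4 in B6 WT livers.

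Of 28061 probe sets, 552 were higher (1.97%) and 670 lower (2.39%) in D2 by limma with the adjusted p held to 0.01, 4.35% together, and 5777 had an unadjusted p under 0.05. With 1 probe set kept for each gene, the one of highest mean liver signal, 13006 genes remained, of which 323 were higher (2.48%) and 330 lower (2.54%), 5.02% together, shares against which the counts of list members are to be read. In all 653 the signals of the 3 D2 WT livers lay apart from those of the 3 B6 WT livers, as did those of 29.7% of all genes. The median difference was 1.89-fold among the higher and 1.95-fold among the lower genes. At least 2-fold differences were found in 143 and 155 of them, at least 4-fold in 43 and 56, and at least 8-fold in 21 and 30. In 23 of the higher genes the B6 mean, and in 34 of the lower genes the D2 mean, was under a signal of 20, so that the fold of these genes is set by background and is no measured ratio. With run as a block 265 of the 653 calls were kept. With an array left out, 388 (without D2 WT 1) to 447 (without D2 WT 3 or B6 WT 3) genes were called.

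**Figure D1:**
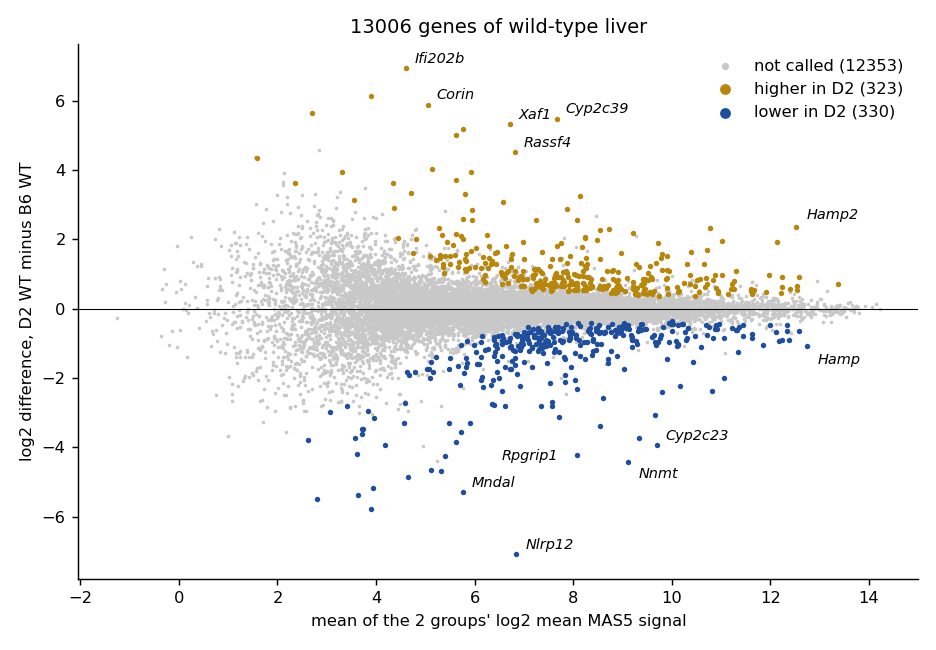
Log2 difference of each gene (D2 WT minus B6 WT, y axis) against the mean of its log2 mean signals in the 2 strains (x axis), with genes called higher in D2 in ochre, lower in blue and not called in grey. The 323 higher and 330 lower genes lie on both sides of 0 over the whole range of signal, and *Nlrp12*, *Ifi202b* and *Corin* lie at the edges.

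Several probe sets often stand for 1 gene, and they did not always give the same answer. Of 569 genes with at least 2 kept probe sets of which 1 or more were called, every probe set was called the same way in 72, only 1 probe set was called in 430, and 14 had probe sets called in opposite directions. Of the probe sets not called in such genes, 71.2% had the sign of the called one. *Ang*, which encodes the ribonuclease angiogenin, had means of 181 in D2 WT and 6484 in B6 WT livers on one probe set and of 1791 in D2 WT and 1138 in B6 WT livers on another. *Pdxdc1*, which encodes a decarboxylase-like protein, had 532 in D2 WT and 6.52 in B6 WT livers on one probe set, against 45.5 in D2 WT and 427 in B6 WT livers on another. *Hspa13*, a microsomal chaperone gene, likewise had probe sets called each way. These genes were singled out after their values had been seen. Whether the sequence under a probe differs between the strains was not tested, so a difference is one of signal on the probe set named by the gene.

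Both hepcidin genes differed between the strains, in opposite directions. *Hamp* gave signals of 5043, 4952 and 4132 in D2 WT livers, against 10256, 9690.0 and 9801 in B6 WT livers (log2 difference -1.08, standard error 0.18, adjusted p = 0.00105). *Hamp2* gave 13527, 13282 and 12978 in D2 WT livers, against 3307, 2393 and 2143 in B6 WT livers (log2 difference 2.37, standard error 0.19, adjusted p = 9.94e-07). The groups were apart for each gene, and the transcript with the higher signal was *Hamp2* in every D2 liver and *Hamp* in every B6 liver, although signals of different probe sets are not on one scale. The genes are close copies and may share label between their probe sets, which the arrays do not resolve. *Hfe* itself gave 437, 434 and 515 in D2 WT livers, against 674, 685 and 691 in B6 WT livers (log2 difference -0.57, standard error 0.11, adjusted p = 0.00353). These 3 were the called members among 25 measured genes of hepcidin control (1 higher and 2 lower, where 5.02% of all genes were called, median 0.03 against 0.02 over all genes). With run as a block the calls for *Hamp* (-0.97) and *Hfe* (-0.68) were lost, and a fit without a mean-variance trend those for *Hamp* and *Hfe*. Averaging the probe sets of each gene ended the calls for *Hamp* (-0.88) and *Hfe* (-1.17). Leaving out arrays in turn ended the call for *Hfe* without D2 WT 1, D2 WT 2, B6 WT 1, B6 WT 2 or B6 WT 3 (-0.58 to -0.53).

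The sequences before the start of the hepcidin genes are shown because the genes differed in opposite directions while their promoters are nearly alike. They are the 250 bases before the start in RefSeq (GRCm38.p6, minus strand), with the element that SMAD factors bind downstream of bone morphogenetic proteins (GGCGCC) or the 6 bases in its place, and the STAT site (TTCNNNGAA), in capitals, both being their own reverse complements.
*Hamp*, chr7:30944030-30944279: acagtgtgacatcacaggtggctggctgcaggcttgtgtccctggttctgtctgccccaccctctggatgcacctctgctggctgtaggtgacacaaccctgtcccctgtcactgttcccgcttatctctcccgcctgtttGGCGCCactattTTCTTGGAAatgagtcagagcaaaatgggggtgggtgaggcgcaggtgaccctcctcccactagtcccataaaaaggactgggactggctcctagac
*Hamp2*, chr7:30924182-30924431: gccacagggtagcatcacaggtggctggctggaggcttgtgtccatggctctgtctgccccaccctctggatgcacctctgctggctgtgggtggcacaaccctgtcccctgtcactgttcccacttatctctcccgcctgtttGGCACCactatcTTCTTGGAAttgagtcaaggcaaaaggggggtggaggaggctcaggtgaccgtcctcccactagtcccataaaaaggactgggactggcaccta
Without gaps, 227 of 247 bases (91.9%) were identical. In *Hamp* the element starts 109 bases before the start of the gene, and *Hamp2* carries GGCACC in its place, the substitution G4A counted from the first base of the element. Both hold TTCTTGGAA. Of the 32851 promoters of this length, 9.59% hold GGCGCC and 7.02% TTCNNNGAA. The reference genome is that of B6, the sequence of D2 was not read, and a match is a description of letters and not of a bound site.

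The other 22 genes of hepcidin control, each read on 1 probe set, did not pass the test. By S-scores the study reported *Hamp*, *Hfe* and *Smad4* to be lower and *Hamp2* and *Slc40a1* to be higher in wild-type D2 than in wild-type B6 livers. Of these, all but *Smad4* were called here with the same direction. On the probe set kept here *Smad4* averaged 867 in D2 WT and 901 in B6 WT livers (-0.06, adjusted p = 0.787 by limma). *Tfr2*, the transferrin receptor that pairs with HFE, gave 4225, 3971 and 4257 in D2 WT livers, against 3996, 3713 and 3538 in B6 WT livers, and did not pass (0.15, adjusted p = 0.34). *Tmprss6*, the protease that cuts the co-receptor hemojuvelin, averaged 1961 ± 57.6 in D2 WT and 1683 ± 142 in B6 WT livers (SD, n = 3 each, 0.22, adjusted p = 0.157 by limma), and *Hjv*, hemojuvelin itself, 620.2 ± 41.4 in D2 WT and 627 ± 44.2 in B6 WT livers (SD, n = 3 each, -0.02, adjusted p = 0.968 by limma). *Id1*, a target of the BMP-SMAD pathway, gave 63.4, 70.6 and 59.6 in D2 WT livers, against 104, 165 and 123 in B6 WT livers, groups that do not overlap, but missed the threshold (-0.99, adjusted p = 0.015). *Bmp6*, the iron-responsive ligand, had low signals that overlapped, 23.4, 21.1 and 49.98 in D2 WT and 45.95, 43.2 and 47.4 in B6 WT livers (-0.64, adjusted p = 0.341).

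Of 27 measured genes of iron transport and storage 3 were higher in D2 (11.1% against 2.48% of all genes) and none lower, with a list median of 0.09. *Slc40a1*, which encodes ferroportin, gave 2065, 2297 and 1796 in D2 WT livers, against 1199, 1238 and 959 in B6 WT livers (log2 difference 0.86, standard error 0.12, adjusted p = 3.45e-04). *Slc39a14*, a carrier that takes iron not bound to transferrin into hepatocytes, gave 610.3, 635 and 543 in D2 WT livers, against 346, 370.4 and 410.1 in B6 WT livers (log2 difference 0.67, standard error 0.11, adjusted p = 7.65e-04). *Steap4*, a metalloreductase, gave 393, 396 and 475 in D2 WT livers, against 249, 223 and 276 in B6 WT livers (log2 difference 0.76, standard error 0.12, adjusted p = 9.70e-04). The lowest D2 liver lay above the highest B6 liver for each. The ferritin heavy chain gene *Fth1* averaged 9698 ± 552 in D2 WT and 9629.6 ± 754 in B6 WT livers (SD, n = 3 each, 0.01, adjusted p = 0.977 by limma), and the transferrin receptor gene *Tfrc* 259 ± 67.8 in D2 WT and 209.7 ± 64.1 in B6 WT livers (SD, n = 3 each, 0.32, adjusted p = 0.547 by limma). The ferroxidase *Cp* and the heme and hemoglobin carriers *Hpx* and *Hp* had differences of 0.08, -0.03 and -0.01, none of which passed. *Abcg2*, an exporter of porphyrins and other compounds, averaged 669.9 in D2 WT and 1018 in B6 WT livers without passing (-0.61, adjusted p = 0.0404). *Cybrd1*, a ferric reductase gene best known from duodenum, was near background with 14.2, 13.6 and 26.5 in D2 WT livers, against 1.96, 5.13 and 3.36 in B6 WT livers, and did not pass (2.41, adjusted p = 0.0477). A block for run ended the calls for *Slc39a14* (0.72) and *Steap4* (0.63), and a fit without a mean-variance trend those for *Slc40a1*, *Slc39a14* and *Steap4*. The calls for *Slc39a14* (0.44) and *Steap4* (0.76) did not hold when probe sets were averaged by gene.

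Of 12 measured genes of heme synthesis and breakdown 1 was called (8.33% against 5.02% of all genes). *Alad*, aminolevulinate dehydratase, gave 2185, 1926 and 1836 in D2 WT livers, against 822, 732 and 851 in B6 WT livers (log2 difference 1.31, standard error 0.14, adjusted p = 1.67e-05). *Alas1*, the first and rate-limiting enzyme in liver, averaged 4116 in D2 WT and 2416 in B6 WT livers, which did not overlap, with a wide error (log2 difference 0.78, standard error 0.60, adjusted p = 0.531). *Hmox1*, the inducible heme oxygenase, gave 60.5, 65.5 and 58.95 in D2 WT livers, against 106, 112 and 103 in B6 WT livers, groups that also lay apart, and did not pass (-0.80, adjusted p = 0.122). The study reported it to be lower in wild-type D2 livers by S-scores. Of 20 genes of mitochondrial iron and iron-sulfur clusters none was called, the smallest adjusted p being that of the mitochondrial carrier *Sfxn2* (-0.57, adjusted p = 0.0114).

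**Figure D2:**
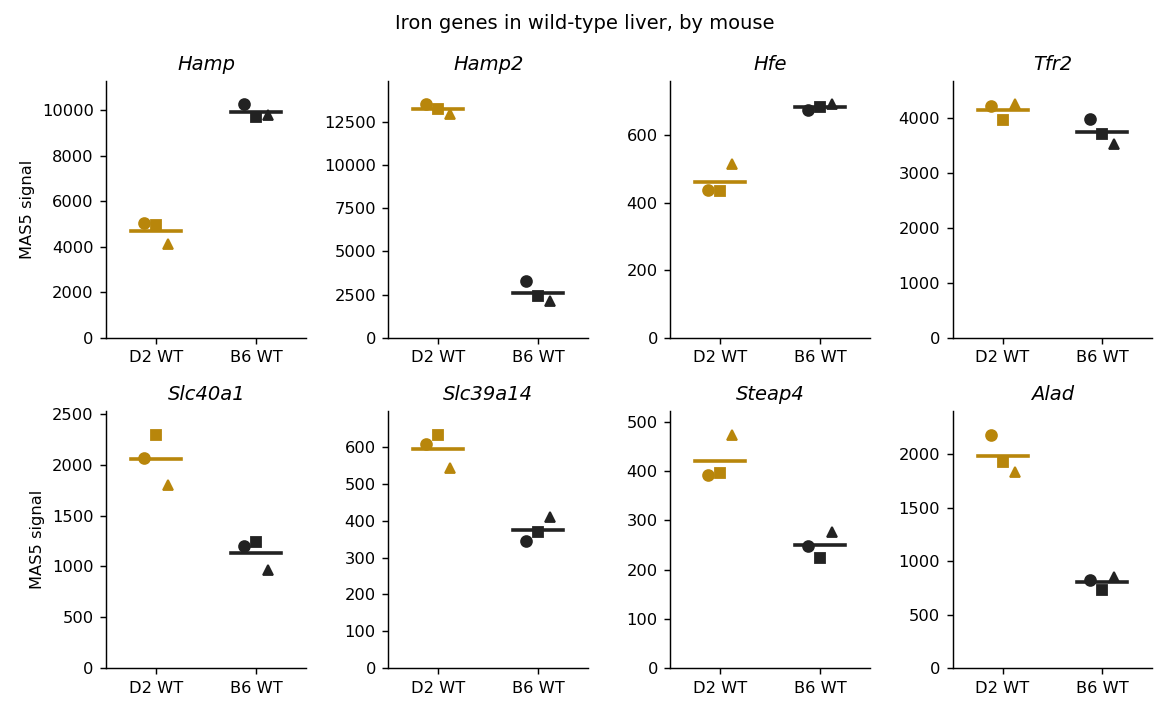
MAS5 signal (linear scale, y axis) of 8 iron genes in each D2 WT liver (left) and B6 WT liver (right), circles, squares and triangles being replicates 1, 2 and 3 and bars the group means. *Hamp* and *Hfe* lie lower and *Hamp2*, *Slc40a1*, *Slc39a14*, *Steap4* and *Alad* higher in all D2 livers, while *Tfr2* was not called.

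Among the 578 called genes with a mean signal of at least 100 in one strain, the largest differences were close to presence against background. *Ifi202b*, an interferon-inducible DNA-binding protein gene of the Ifi200 cluster, gave 172, 241 and 261 in D2 WT livers, against 0.506, 2.21 and 5.24 in B6 WT livers (log2 difference 6.94, standard error 0.84, adjusted p = 7.21e-05). *Corin*, whose protease activates the natriuretic peptide of the heart, gave 227, 229.8 and 230.3 in D2 WT livers, against 1.52, 4.797 and 8.07 in B6 WT livers (log2 difference 5.88, standard error 0.53, adjusted p = 3.37e-06). *Xaf1*, which encodes an interferon-inducible partner of the apoptosis inhibitor XIAP, gave 650.2, 543 and 731 in D2 WT livers, against 9.73, 26.04 and 15.7 in B6 WT livers (log2 difference 5.33, standard error 0.54, adjusted p = 1.09e-05). All 3 B6 WT livers were near background for these genes. *H2-Ea*, the alpha chain gene of the class II molecule E, which B6 mice are known not to make, gave 194, 257 and 228 in D2 WT livers, against 1.495, 19.5 and 11.3 in B6 WT livers (log2 difference 5.03, standard error 0.82, adjusted p = 9.78e-04). *Rassf4*, of the Ras-association domain family, gave 551, 561 and 453 in D2 WT livers, against 20.5, 36.5 and 15.5 in B6 WT livers (log2 difference 4.52, standard error 0.38, adjusted p = 1.76e-06). The Golgi membrane protein gene *Tmem87a* (4.04), the PRELI domain gene *Prelid2* (3.96) and *D630033O11Rik* (3.70), of unknown function, were higher too. So were *Serpina7*, which encodes thyroxine-binding globulin (3.32), the phosphoinositide kinase adaptor *Pik3ap1* (3.25), the minor spliceosome gene *Snrnp25* (3.08), *Nt5e*, whose enzyme makes extracellular adenosine (2.87), and *Ntrk2*, a neurotrophin receptor (2.84). The calls for *H2-Ea* (4.45), *Tmem87a* (4.20), *D630033O11Rik* (3.35) and *Ntrk2* (2.81) did not hold with run as a block, and a fit without a mean-variance trend those for *H2-Ea*, *Tmem87a*, *Prelid2*, *D630033O11Rik* and *Ntrk2*. With arrays left out in turn the calls did not hold for *Tmem87a* without D2 WT 1, D2 WT 2 or D2 WT 3 (3.95 to 4.12), and for *Prelid2* without any single one of the 6 arrays (3.89 to 4.03).

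The reverse pattern was as marked. *Nlrp12*, a NOD-like receptor gene of innate immunity, gave 7.44, 12.2 and 10.1 in D2 WT livers, against 1294, 1409 and 1270.3 in B6 WT livers (log2 difference -7.09, standard error 0.43, adjusted p = 5.72e-08). *Rpgrip1*, known for its protein in the photoreceptor cilium, gave 61.2, 60.9 and 66.2 in D2 WT livers, against 1127, 1200.2 and 1165 in B6 WT livers (log2 difference -4.21, standard error 0.10, adjusted p = 1.01e-12), and had the smallest error of these genes. *Pttg1*, which encodes securin, the inhibitor of chromatid separation, gave 184, 184 and 165 in D2 WT livers, against 2470.5, 2508 and 2122 in B6 WT livers (log2 difference -3.73, standard error 0.13, adjusted p = 1.46e-10). The D2 livers kept a signal above background for *Rpgrip1* and *Pttg1*, but not for *Nlrp12*. *Nnmt*, nicotinamide N-methyltransferase, gave 67.2, 80.9 and 239 in D2 WT livers, against 2053, 2138 and 2868 in B6 WT livers (log2 difference -4.41, standard error 0.37, adjusted p = 1.75e-06), the highest D2 value being that of D2 WT 3. *Efhd2*, a calcium-binding protein gene, gave 85.6, 122 and 142 in D2 WT livers, against 1220.2, 1267 and 1062 in B6 WT livers (log2 difference -3.37, standard error 0.19, adjusted p = 2.42e-08). Also lower were *Mndal* of the Ifi200 cluster (-5.28), the immunoglobulin-like receptor gene *Ildr2* (-4.69), the peptidase gene *Mme*, which encodes neprilysin (-3.55), and the zinc finger gene *Zfp874a* (-4.26). The genes *Gm7969* (-4.66), *4930523C07Rik* (-3.85), *2010315B03Rik* (-3.28) and *2610507I01Rik* (-3.28), whose functions are not given here, were near background in D2. A fit without a mean-variance trend ended the call for *Mndal*.

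**Figure D3:**
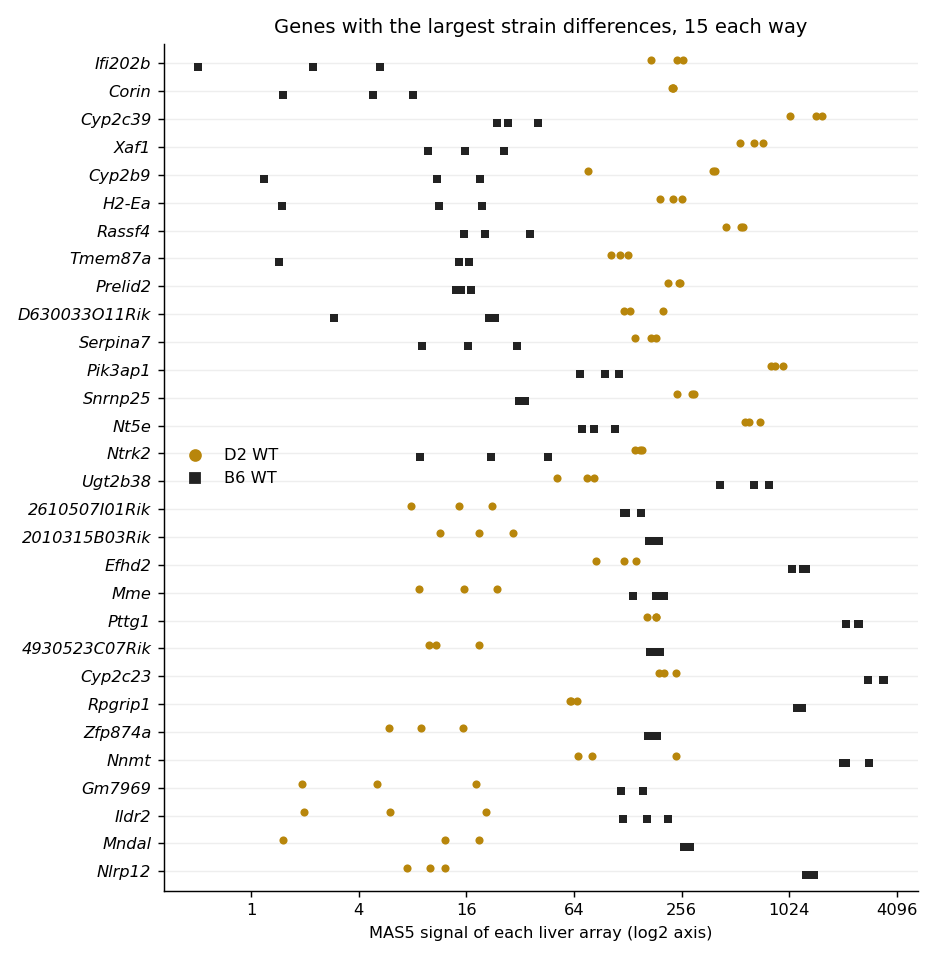
MAS5 signal on each array (x axis, log2 scale) of the 15 genes with the largest positive and the 15 with the largest negative difference, with D2 WT livers as ochre circles above B6 WT livers as black squares. No D2 liver overlaps a B6 liver in any of the 30, and many low groups lie under a signal of 20.

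Cytochrome P450 enzymes oxidize drugs, steroids and fatty acids, and 3 of their genes were among the 30 largest differences. Of 61 measured, 6 were higher and 4 lower in D2 (16.4% against 5.02% of all genes), with a family median of 0.15. *Cyp2c39*, a P450 of the Cyp2c cluster, gave 1553, 1453 and 1034 in D2 WT livers, against 23.8, 40.4 and 27.5 in B6 WT livers (log2 difference 5.48, standard error 0.51, adjusted p = 4.28e-06). *Cyp2c23*, which epoxidizes arachidonic acid, gave 204, 192 and 239 in D2 WT livers, against 3450.2, 3416 and 2829.9 in B6 WT livers (log2 difference -3.93, standard error 0.14, adjusted p = 1.46e-10). The same subfamily thus held one of the largest differences each way. *Cyp3a13*, of the drug-metabolizing Cyp3a subfamily, gave 559, 565 and 473 in D2 WT livers, against 2585, 2402 and 2410.2 in B6 WT livers (log2 difference -2.22, standard error 0.13, adjusted p = 3.52e-08). *Cyp2c29*, an abundant member, gave 8955, 8418 and 7826 in D2 WT livers, against 4628, 4171 and 4553 in B6 WT livers (log2 difference 0.92, standard error 0.12, adjusted p = 1.07e-04). *Cyp2b9*, better known from female liver, gave 395, 382 and 76.5 in D2 WT livers, against 19.1, 10.96 and 1.18 in B6 WT livers (log2 difference 5.17, standard error 1.06, adjusted p = 0.00595), with wide spread in both strains. Of the other called members, *Cyp4a12a*, a fatty acid hydroxylase, was higher (0.56), as were *Cyp2c55* (1.57) and *Cyp2g1* (1.42), while *Cyp2r1*, which activates vitamin D, was lower (-1.39) and *Cyp7b1* is described with bile acids. Fitting run as a block ended the calls for *Cyp2b9* (5.60), *Cyp4a12a* (0.56), *Cyp2c55* (1.28), *Cyp2g1* (1.56) and *Cyp2r1* (-1.44), and a fit without a mean-variance trend those for *Cyp2b9*, *Cyp4a12a* and *Cyp2c55*. When single arrays were left out the calls were lost for *Cyp2b9* without D2 WT 1, D2 WT 2, B6 WT 2 or B6 WT 3 (3.97 to 5.58), for *Cyp4a12a* without D2 WT 1, D2 WT 3, B6 WT 1 or B6 WT 2 (0.47 to 0.56), for *Cyp2c55* without D2 WT 1, D2 WT 2, D2 WT 3, B6 WT 1 or B6 WT 2 (1.48 to 1.62), and for *Cyp2g1* without any single one of the 6 arrays (1.28 to 1.61). Quantile normalization ended the call for *Cyp2g1* (1.41), and dropping the filter the call for *Cyp2g1* (1.42).

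Conjugating enzymes and transporters followed. Of 21 glutathione S-transferase genes, 3 were higher and 1 lower (19.0% against 5.02% of all genes), with a median of 0.28. *Mgst3*, a microsomal member, gave 749, 664 and 564 in D2 WT livers, against 124, 113 and 96.96 in B6 WT livers (log2 difference 2.56, standard error 0.18, adjusted p = 2.56e-07). *Gstm3* (1.43) and *Gsta4*, which clears products of lipid peroxidation (0.76), were higher and *Gsto1* (-0.55) was lower. *Ugt2b38* was the 1 call of 11 glucuronosyltransferase genes (9.09% against 5.02% of all genes) and gave 82.8, 75.7 and 51.2 in D2 WT livers, against 792, 650.5 and 421 in B6 WT livers (log2 difference -3.13, standard error 0.25, adjusted p = 8.66e-07). The sulfotransferase *Sult1c2* (1.80, 1 of 7 called), the carboxylesterase *Ces1e* (0.82, 1 of 12) and the proline-degrading *Aldh4a1* (1.22) were higher and *Aldh16a1* (-1.07) was lower, these last being the calls of 19 aldehyde dehydrogenase genes. None of 4 flavin mono-oxygenase genes or of 13 aldo-keto reductase genes was called. Of 54 organic anion and ABC transporter genes, 4 were higher and 3 lower. *Abca3*, a phospholipid transporter gene, gave 641, 602 and 623 in D2 WT livers, against 168, 142 and 134 in B6 WT livers (log2 difference 2.08, standard error 0.15, adjusted p = 3.40e-07), and *Slco2b1*, an uptake carrier of organic anions, gave 259, 264 and 332 in D2 WT livers, against 596, 692 and 691 in B6 WT livers (log2 difference -1.22, standard error 0.15, adjusted p = 6.48e-05). The organic ion carrier genes *Slc22a29* (3.34), *Slc22a23* (0.86) and *Slc22a30* (0.75) were higher and *Abcc6*, whose loss in people causes ectopic calcification, was lower (-0.84). Of 22 measured genes that respond to NRF2, the regulator of antioxidant enzymes, 1 was higher and 1 lower (9.09% against 5.02% of all genes), with a median of 0.07. *Gclc*, the rate-limiting enzyme of glutathione synthesis, was higher (0.79, adjusted p = 0.00138) and the export pump *Abcc2* lower (-0.53, adjusted p = 0.00305). With run as a block the calls for *Gstm3* (1.05), *Gsto1* (-0.46), *Slc22a29* (3.09), *Slc22a30* (0.81), *Abcc6* (-0.999), *Gclc* (0.85) and *Abcc2* (-0.61) were lost, and a fit without a mean-variance trend those for *Gstm3*, *Gsta4*, *Gsto1*, *Slc22a29*, *Slc22a23*, *Slc22a30*, *Abcc6*, *Gclc* and *Abcc2*. Means over the probe sets of a gene ended the calls for *Mgst3* (0.53) and *Abcc6* (-0.84). Left-out arrays ended the calls for *Gsto1* without D2 WT 2, D2 WT 3, B6 WT 1 or B6 WT 2 (-0.54 to -0.51), for *Slc22a29* without D2 WT 1, D2 WT 2, B6 WT 2 or B6 WT 3 (3.09 to 3.21), for *Slc22a23* without D2 WT 1, D2 WT 2 or B6 WT 1 (0.80 to 0.83), for *Slc22a30* without D2 WT 1, D2 WT 2, D2 WT 3, B6 WT 2 or B6 WT 3 (0.68 to 0.78), for *Abcc6* without D2 WT 1, D2 WT 2, B6 WT 1, B6 WT 2 or B6 WT 3 (-0.93 to -0.71), and for *Abcc2* without D2 WT 1, D2 WT 3, B6 WT 2 or B6 WT 3 (-0.53 to -0.49).

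Interferon-stimulated genes are switched on by type I and type II interferons. Of 36 measured, 10 were higher and none lower (27.8% against 2.48% of all genes), 33 had a positive difference, and the median was 0.76. *Igtp*, an immunity-related GTPase gene, gave 1287, 1368 and 1152 in D2 WT livers, against 215, 341 and 286 in B6 WT livers (log2 difference 2.20, standard error 0.32, adjusted p = 3.81e-04). *Gbp6*, a guanylate-binding protein gene, gave 299.9, 325 and 246 in D2 WT livers, against 83.1, 105 and 91.98 in B6 WT livers (log2 difference 1.63, standard error 0.23, adjusted p = 3.08e-04). *Rtp4*, a receptor-transporting protein gene, gave 897, 854 and 872 in D2 WT livers, against 258, 276 and 334 in B6 WT livers (log2 difference 1.60, standard error 0.21, adjusted p = 1.58e-04). The GTPase genes *Irgm1* (1.07), *Irgm2* (1.12) and *Iigp1* (0.65), the antiviral gene *Ifit3* (1.31), the transcription factor gene *Irf9* (0.76) and the immunoproteasome gene *Psmb8* (0.75) were the others called, besides *Xaf1*. These 6 were named after their values had been seen. The summed signal of the list was 18387 to 18745 in D2 WT and 9719 to 11101 in B6 WT livers. The list median was 0.85 in *Hfe*-/- livers and 0.63 in duodenum. With run as a block 4 members were higher and none lower, with a median of 0.89. A block for run ended the calls for *Irgm1* (1.12), *Irgm2* (1.24), *Iigp1* (0.68), *Ifit3* (1.41), *Irf9* (0.86) and *Psmb8* (0.70), and a fit without a mean-variance trend those for *Igtp*, *Irgm1*, *Irgm2*, *Iigp1*, *Ifit3*, *Irf9* and *Psmb8*. Averaging the probe sets of each gene ended the calls for *Rtp4* (1.25) and *Psmb8* (0.07). Leaving out arrays in turn ended the calls for *Irgm1* and *Irf9* without D2 WT 1, D2 WT 2, D2 WT 3, B6 WT 1 or B6 WT 2 (0.99 to 1.13 and 0.66 to 0.79), for *Irgm2* without any single one of the 6 arrays (0.99 to 1.19), for *Iigp1* without D2 WT 1 or B6 WT 3 (0.62 to 0.64), for *Ifit3* without D2 WT 1, D2 WT 2, D2 WT 3 or B6 WT 1 (1.15 to 1.34), and for *Psmb8* without D2 WT 2, D2 WT 3, B6 WT 1, B6 WT 2 or B6 WT 3 (0.63 to 0.82).

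The promoters of *Ifit3* and *Igtp* are shown because both carry the interferon response element, GAAA followed after any 2 bases by a second GAAA, which is in capitals on either strand, in the 250 bases before the RefSeq start (GRCm38.p6, plus strand).
*Ifit3*, chr19:34583279-34583528: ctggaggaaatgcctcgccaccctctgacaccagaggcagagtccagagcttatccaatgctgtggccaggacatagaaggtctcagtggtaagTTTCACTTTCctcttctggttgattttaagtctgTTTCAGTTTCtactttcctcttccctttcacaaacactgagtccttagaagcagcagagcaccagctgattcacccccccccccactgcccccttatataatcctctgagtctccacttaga
*Igtp*, chr11:58199306-58199555: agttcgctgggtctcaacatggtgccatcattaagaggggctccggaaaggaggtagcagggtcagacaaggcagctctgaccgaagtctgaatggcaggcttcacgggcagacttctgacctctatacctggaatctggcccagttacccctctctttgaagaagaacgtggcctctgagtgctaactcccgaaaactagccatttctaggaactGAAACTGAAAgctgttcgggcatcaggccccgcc
The element is found in 2.98% of all promoters of this length, in 15 of the 32 listed interferon-stimulated genes with a promoter, and in 4 of 8 of those called. It is the B6 sequence in each case.

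Interferon-stimulated genes are expressed by several cell types of the liver. Of the markers of Kupffer cells and macrophages 12 of 12 had a negative difference, with a median of -0.39 and a summed signal of 3259 to 4529.8 in D2 WT and 4708 to 6294 in B6 WT livers. One of them, the macrophage gene *Cd5l*, was called, with 353, 483 and 503 in D2 WT livers, against 839.9, 1011 and 700.4 in B6 WT livers (log2 difference -0.93, standard error 0.20, adjusted p = 0.00819). The median of these 12 markers was -0.06 in *Hfe*-/- livers and -0.04 in duodenum. With run as a block none was called, and their median in wild-type livers was -0.41. Of 10 endothelial markers, *Lyve1*, a hyaluronan receptor of sinusoidal endothelium, was lower, with 50.2, 75.4 and 52.8 in D2 WT livers, against 139, 291 and 251 in B6 WT livers (log2 difference -1.89, standard error 0.37, adjusted p = 0.00408), and the median was -0.14. In whole liver, fewer cells of a type and less RNA per cell cannot be told apart. No marker of stellate cells, cholangiocytes, B cells, T and NK cells, neutrophils, red cells or fat cells was called. Of 7 markers of pancreatic acinar cells 1 was higher, the elastase gene *Cela1*, with 399, 417 and 400.0 in D2 WT livers, against 238, 168 and 228 in B6 WT livers (log2 difference 0.96, standard error 0.20, adjusted p = 0.00766), and the list summed to 443 to 472 in D2 WT and 269 to 363 in B6 WT livers. Of the 7, 5 had a negative difference, the median was -1.72, and the sums include *Cela1*. T and NK cell markers summed to 62.7 to 93.5 in D2 WT and 81.2 to 114 in B6 WT livers and B and plasma cell markers to 134 to 171 in D2 WT and 156 to 182 in B6 WT livers. The part of cell composition in the interferon-stimulated genes was not tested. The calls for *Cd5l* (-0.99) and *Cela1* (0.99) did not hold with run as a block, and a fit without a mean-variance trend those for *Cd5l*, *Lyve1* and *Cela1*. The calls for *Cd5l* (-0.93) and *Cela1* (0.96) did not hold when probe sets were averaged by gene. With arrays left out in turn the calls did not hold for *Cd5l* without D2 WT 1, D2 WT 2, D2 WT 3, B6 WT 1 or B6 WT 2 (-1.02 to -0.77), for *Lyve1* without D2 WT 1, D2 WT 3, B6 WT 2 or B6 WT 3 (-1.81 to -1.68), and for *Cela1* without any single one of the 6 arrays (0.80 to 1.05). Quantile normalization ended the calls for *Cd5l* (-0.91) and *Cela1* (0.95).

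MHC genes differed by member. *H2-D1*, a class I heavy chain gene, gave 5499, 5455 and 5802 in D2 WT livers, against 4175, 4121 and 3970.0 in B6 WT livers (log2 difference 0.45, standard error 0.09, adjusted p = 0.00692). *H2-K1*, another, gave 3534, 3544 and 3505 in D2 WT livers, against 6426, 7331 and 5963 in B6 WT livers (log2 difference -0.89, standard error 0.10, adjusted p = 4.41e-05), but a further probe set of *H2-K1* was higher in D2, with means of 3630 in D2 WT and 2438 in B6 WT livers, and the strains carry different alleles of these genes. *H2-Q10*, which encodes a secreted class I molecule of liver, averaged 4107 in D2 WT and 6421 in B6 WT livers (-0.65, adjusted p = 0.00459). With *H2-Ea* these were the 4 calls, 2 each way, of 19 measured (21.1% against 5.02% of all genes). In the Ifi200 cluster 1 of 7 genes, *Ifi202b*, was higher and 1, *Mndal*, lower (28.6% against 5.02% of all genes). *Mndal* gave 1.52, 18.8 and 12.1 in D2 WT livers, against 271, 284 and 265 in B6 WT livers (log2 difference -5.28, standard error 0.77, adjusted p = 3.75e-04). Genes of both families share sequence, so that their probe sets may not tell members apart. Fitting run as a block ended the calls for *H2-D1* (0.40) and *H2-Q10* (-0.62), and a fit without a mean-variance trend those for *H2-D1* and *H2-Q10*. When single arrays were left out the calls were lost for *H2-D1* and *H2-Q10* without any single one of the 6 arrays (0.42 to 0.47 and -0.71 to -0.56).

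The metallothionein genes *Mt1* and *Mt2*, whose proteins bind zinc and copper in the cell, were higher in D2. *Mt1* gave 10050.5, 8293 and 7836 in D2 WT livers, against 1912, 2278 and 2775 in B6 WT livers (log2 difference 1.92, standard error 0.24, adjusted p = 8.57e-05). *Mt2* gave 4403, 4021 and 3156 in D2 WT livers, against 872, 501 and 999 in B6 WT livers (log2 difference 2.33, standard error 0.31, adjusted p = 1.43e-04). The lowest D2 liver was well over the highest B6 liver for both. With *Slc30a10*, an exporter of manganese (0.64), they made 3 calls of 8 measured genes (37.5% against 5.02% of all genes). Secreted liver proteins also differed. Of 10 Serpina genes, which encode serine protease inhibitors and hormone carriers, 5 were higher and none lower, with a median of 0.93. *Serpina6*, which encodes corticosteroid-binding globulin, gave 3183, 2737 and 3100.2 in D2 WT livers, against 948, 1006 and 850.0 in B6 WT livers (log2 difference 1.69, standard error 0.12, adjusted p = 2.61e-07). *Serpina11* (1.63), *Serpina3n*, an acute phase antiprotease gene (1.09), and *Serpina10*, which encodes the protein Z-dependent inhibitor (0.56), were higher, as was *Serpina7*. Serpina genes lie in clusters of like sequence and may share label. With run as a block the call for *Slc30a10* (0.72) was lost, and a fit without a mean-variance trend those for *Slc30a10* and *Serpina10*. Means over the probe sets of a gene ended the call for *Slc30a10* (0.51). Left-out arrays ended the calls for *Slc30a10* without any single one of the 6 arrays (0.53 to 0.72), and for *Serpina10* without D2 WT 3 or B6 WT 3 (0.50 to 0.53). Quantile normalization ended the call for *Slc30a10* (0.62), and a fit to the 6 wild-type arrays alone the call for *Slc30a10* (0.64).

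Of 35 acute phase and complement genes, 3 were higher and 1 lower (11.4% against 5.02% of all genes), with a median of 0.07. *Apcs*, which encodes serum amyloid P, an acute phase protein of mice, gave 3519, 3443 and 5345 in D2 WT livers, against 1003, 1050.4 and 1072 in B6 WT livers (log2 difference 1.95, standard error 0.14, adjusted p = 3.63e-07). *Fga*, the fibrinogen alpha chain gene (0.71), and *Orm2*, an orosomucoid gene (1.60), were higher as well. *Hc*, which encodes complement component C5, gave 1021, 959 and 1228 in D2 WT livers, against 4642, 4059 and 4013 in B6 WT livers (log2 difference -1.99, standard error 0.12, adjusted p = 4.65e-08). D2 mice are known to lack functional C5. A block for run ended the calls for *Fga* (0.71) and *Orm2* (1.22), and a fit without a mean-variance trend that for *Orm2*. Leaving out arrays in turn ended the call for *Orm2* without D2 WT 3, B6 WT 1, B6 WT 2 or B6 WT 3 (1.29 to 1.65).

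Metabolic lists differed at single genes. Of 18 genes of gluconeogenesis and the fasting response, 4 were lower in D2 and none higher (22.2% against 2.54%), with a median of -0.14. *Lpin1*, a phosphatidate phosphatase and coactivator gene, gave 59.6, 74.2 and 89.96 in D2 WT livers, against 578, 448 and 418 in B6 WT livers (log2 difference -2.70, standard error 0.36, adjusted p = 1.56e-04). *Got1*, cytosolic aspartate aminotransferase, gave 2453, 2253 and 3046 in D2 WT livers, against 4901, 5681 and 5422 in B6 WT livers (log2 difference -1.05, standard error 0.12, adjusted p = 5.18e-05). *Tat*, the glucocorticoid-induced tyrosine aminotransferase, gave 3234, 2829 and 4041 in D2 WT livers, against 6517, 6031 and 6541 in B6 WT livers (log2 difference -0.93, standard error 0.12, adjusted p = 1.39e-04). *G6pc*, glucose-6-phosphatase, averaged 2041 in D2 WT and 3117 in B6 WT livers (-0.62, adjusted p = 0.00212). The urea cycle gene *Ass1*, with *Tat* the 2 calls of 9 hepatocyte markers (22.2% against 5.02% of all genes), gave 103, 94.8 and 236 in D2 WT livers, against 485, 368 and 419 in B6 WT livers (log2 difference -1.67, standard error 0.25, adjusted p = 4.89e-04). Of 20 immediate early genes *Gadd45g* (-2.11) and *Junb* (-0.67) were lower and none higher, with a median of -0.27. The calls for *G6pc* (-0.45) and *Junb* (-0.60) did not hold with run as a block, and a fit without a mean-variance trend those for *G6pc*, *Ass1*, *Gadd45g* and *Junb*. With arrays left out in turn the calls did not hold for *G6pc* without D2 WT 3, B6 WT 1 or B6 WT 3 (-0.61 to -0.52), and for *Junb* without D2 WT 1, D2 WT 2, D2 WT 3, B6 WT 2 or B6 WT 3 (-0.70 to -0.56). Dropping the filter ended the call for *Junb* (-0.67), and a fit to the 6 wild-type arrays alone the call for *Junb* (-0.67).

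Among 28 genes of cholesterol and fatty acid synthesis, 2 were higher and 1 lower (10.7% against 5.02% of all genes). *Sc5d*, a late desaturase of cholesterol synthesis, gave 851, 762 and 823 in D2 WT livers, against 2369.9, 2378 and 2342 in B6 WT livers (log2 difference -1.54, standard error 0.14, adjusted p = 3.06e-06). *Srebf2*, the regulator of the pathway (1.17, adjusted p = 0.00493), and *Fdft1*, squalene synthase (0.58, adjusted p = 0.0074), were higher. Of 26 genes of bile acid synthesis and transport, 1 was higher and 2 lower (11.5% against 5.02% of all genes). *Cyp7b1*, the oxysterol hydroxylase of the alternative route, gave 622, 611 and 1184 in D2 WT livers, against 4394, 3679.8 and 3938 in B6 WT livers (log2 difference -2.38, standard error 0.40, adjusted p = 0.00134). *Fgfr4*, the receptor for the intestinal signal that restrains bile acid synthesis, was higher (0.73, adjusted p = 0.00345). The calls of the growth hormone list, which holds male-predominant liver genes, were *Cyp7b1* and *Cyp4a12a*, of 24 measured (8.33% against 5.02% of all genes). None of 31 genes of fatty acid oxidation, 17 clock genes, 25 genes of endoplasmic reticulum stress, 22 apolipoprotein and lipoprotein genes or 32 respiratory chain genes was called, with medians of 0.13, -0.05, -0.07, 0.01 and -0.01. A missed threshold does not show that the strains were alike, and a respiratory chain gene outside the list, *Ndufa12* of complex I, was lower in D2 (-1.26, adjusted p = 1.52e-07). Fitting run as a block ended the calls for *Srebf2* (1.17), *Fdft1* (0.65) and *Fgfr4* (0.63), and a fit without a mean-variance trend those for *Srebf2*, *Fdft1*, *Cyp7b1* and *Fgfr4*. Averaging the probe sets of each gene ended the calls for *Sc5d* (-0.50), *Srebf2* (0.86), *Fdft1* (0.53) and *Fgfr4* (0.49). When single arrays were left out the calls were lost for *Srebf2* without D2 WT 1, D2 WT 2, B6 WT 1 or B6 WT 2 (0.95 to 1.21), for *Fdft1* without D2 WT 1, D2 WT 3, B6 WT 1, B6 WT 2 or B6 WT 3 (0.51 to 0.64), for *Cyp7b1* without D2 WT 1 or D2 WT 2 (-2.23 to -2.22), and for *Fgfr4* without D2 WT 2, D2 WT 3, B6 WT 1, B6 WT 2 or B6 WT 3 (0.68 to 0.74).

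**Figure D4:**
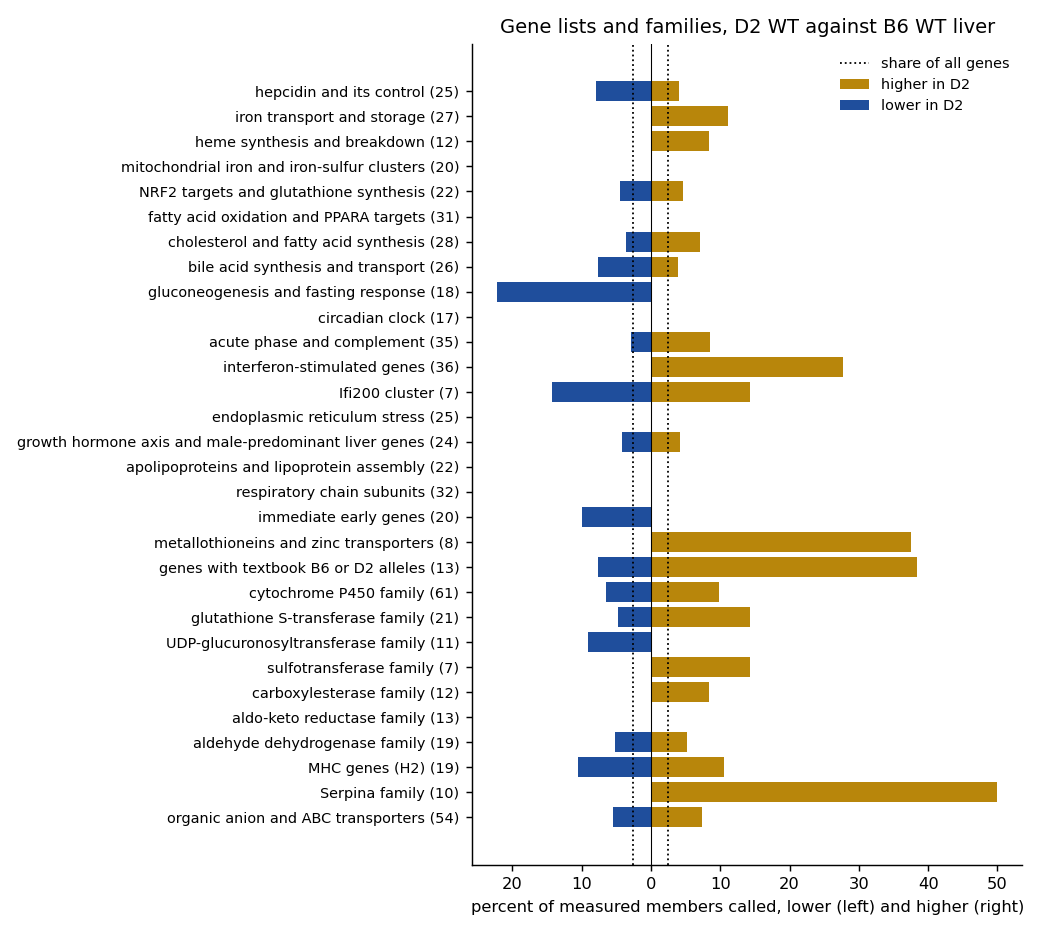
Percent of the measured members of each list or family (number measured in parentheses, leaving out the list of the study, the cell markers and families of under 5 genes) that were called higher (ochre, to the right) or lower (blue, to the left) in D2 WT livers. Dotted lines mark the share of all genes called, 2.48% higher and 2.54% lower; the Serpina family extends furthest to the right of the lists drawn, followed by the genes with known alleles, metallothioneins and interferon-stimulated genes, and the fasting response furthest to the left.

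Genes at which B6 and D2 are known to carry different alleles served as a check of the strain labels. Of 13 measured, 5 were higher and 1 lower (46.2% against 5.02% of all genes). All 3 D2 WT livers stood on one side for each, as they did for every called gene. The list was drawn up with earlier results of these data known, so its share is no independent evidence. *Gbp2b*, *Klrd1*, *Cd72*, *Myo5a* and *Akp3* were not called and had D2 WT means under 20. *Glo1*, glyoxalase, which is duplicated in D2, gave 7585, 6163 and 6024 in D2 WT livers, against 3827, 3381 and 3279.7 in B6 WT livers (log2 difference 0.91, standard error 0.11, adjusted p = 6.76e-05). *Nnt*, the mitochondrial transhydrogenase, of which some C57BL/6 substrains carry a deletion, gave 1610.1, 1520.1 and 1467 in D2 WT livers, against 542, 541 and 459 in B6 WT livers (log2 difference 1.58, standard error 0.10, adjusted p = 8.48e-08). The labels do not give the substrain. *Alad* is duplicated in D2 as well, and *Ifi202b* and *Hc* were given above. Also on the list, *Fmn2*, which encodes an actin-nucleating formin, gave 120.2, 116 and 152 in D2 WT livers, against 46.9, 62.03 and 46.2 in B6 WT livers (log2 difference 1.33, standard error 0.27, adjusted p = 0.00614). The aryl hydrocarbon receptor gene *Ahr*, whose alleles differ in the affinity of the protein, averaged 509.6 in D2 WT and 604 in B6 WT livers and did not pass (-0.24, adjusted p = 0.345). With run as a block the call for *Fmn2* (1.17) was lost, and a fit without a mean-variance trend that for *Fmn2*. The call for *Fmn2* (1.74) did not hold when probe sets were averaged by gene. Left-out arrays ended the call for *Fmn2* without any single one of the 6 arrays (1.20 to 1.46).

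The study drew up a list of genes in regions thought to hold modifiers of iron loading, with differences between the strains as one criterion, so that their direction here is no independent evidence. Of 29 measured, 6 were higher and 9 lower (51.7% against 5.02% of all genes). *Asgr2*, a subunit of the hepatic asialoglycoprotein receptor, gave 988, 1068 and 760.3 in D2 WT livers, against 189, 148 and 239 in B6 WT livers (log2 difference 2.30, standard error 0.19, adjusted p = 1.44e-06). *Sae1*, of the SUMO-activating enzyme, gave 599, 624 and 616 in D2 WT livers, against 170.2, 133 and 147 in B6 WT livers (log2 difference 2.04, standard error 0.11, adjusted p = 1.71e-08). *Hamp2* and *Pttg1* were the other members with the smallest adjusted p.

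Called genes lay next to each other 77 times among 12963 neighbouring pairs in the order of RefSeq genes (GRCm38.p6), 55 times with the same direction, and 5 runs of 3 genes had one direction. Of the 12984 genes placed 651 were called, and how many such pairs would arise without clustering was not tested. The run of *Clns1a*, a chloride channel regulator, *Aqp11*, an aquaporin, and *Myo7a*, a myosin of the inner ear, was lower in D2, with differences of -0.81, -1.16 and -1.81. The run of *Selp*, P-selectin, *F5*, coagulation factor V, and *Slc19a2*, a thiamine carrier, was lower (-1.82, -0.54 and -1.01), and so were the vesicle fusion genes *Vamp5* and *Vamp8* with *Ggcx*, the vitamin K-dependent carboxylase (-0.70, -1.11 and -1.51). *Nedd1*, a centrosome gene, and *Cdk17*, a kinase gene, were lower as well (-0.77 and -0.77), in a run with a probe set annotated to the microRNA gene *Mir1931*, for which no value is given because the array does not read the mature form. The 1 run higher in D2 held *Snrnp25*, the inactive rhomboid gene *Rhbdf1* and the DNA repair gene *Mpg* (3.08, 1.57 and 0.96). *Snrnp25* gave 299, 240.1 and 292 in D2 WT livers, against 31.7, 32.4 and 33.9 in B6 WT livers. Neighbours here are measured genes, so that unmeasured genes may lie between them, and transcripts that overlap could share a signal. A block for run ended the calls for *Selp* (-2.06), *F5* (-0.51), *Vamp5* (-0.74), *Nedd1* (-0.80), *Cdk17* (-0.75), *Rhbdf1* (1.33) and *Mpg* (0.93), and a fit without a mean-variance trend those for *F5*, *Slc19a2*, *Vamp5*, *Nedd1* and *Rhbdf1*. Means over the probe sets of a gene ended the calls for *Aqp11* (-0.59), *Selp* (-0.37), *Vamp5* (-0.74), *Nedd1* (-0.62), *Cdk17* (-0.41) and *Mpg* (0.08). Leaving out arrays in turn ended the calls for *Selp* without D2 WT 1, D2 WT 2, B6 WT 1, B6 WT 2 or B6 WT 3 (-1.95 to -1.68), for *F5* without D2 WT 1, B6 WT 1 or B6 WT 2 (-0.52 to -0.50), for *Vamp5* without any single one of the 6 arrays (-0.76 to -0.66), for *Nedd1* without D2 WT 1, D2 WT 2, B6 WT 2 or B6 WT 3 (-0.77 to -0.66), for *Rhbdf1* without D2 WT 1, D2 WT 2, D2 WT 3, B6 WT 1 or B6 WT 2 (1.32 to 1.61), and for *Mpg* without D2 WT 1, D2 WT 3 or B6 WT 2 (0.91 to 0.92).

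The same strains without *Hfe* gave a second set of mice, which shares no array with the wild-type comparison but was fitted with it. All D2 *Hfe*-/- livers were hybridized in a run that held no B6 *Hfe*-/- liver. Strain and run therefore cannot be told apart among the *Hfe*-/- livers. Of the 653 genes, 629 (96.3%) had the same sign in D2 *Hfe*-/- against B6 *Hfe*-/- livers, and 83.2% had groups that did not overlap there, against 25.5% of all genes. The share of all genes with the same sign was not counted. In *Hfe*-/- livers 5.44% of all genes were called, and 383 genes were called the same way in both, 58.7% of the wild-type calls and 54.1% of the knockout calls, with 0 called in opposite directions by limma. *Nlrp12* differed by -7.19 there, *Xaf1* by 5.40, *Pttg1* by -3.65 and *Ifi202b* by 6.15. *Cyp2b9* had a difference of -1.56 (adjusted p = 0.448) in *Hfe*-/- livers, against 5.17 in wild-type livers, and the interaction did not pass (adjusted p = 0.13). The strain difference itself changed with genotype (interaction called at 0.1) in 15 of the 653 genes, against 0.223% of all genes. The wild-type difference that chose the 653 is a term of this test, so nothing is read from that excess. For *Hamp2* the difference was 0.45 in *Hfe*-/- livers, against 2.37 in wild-type livers (interaction -1.92, standard error 0.27, adjusted p = 0.00933). For *Hamp* it was -2.60 in *Hfe*-/- livers, against -1.08 in wild-type livers (interaction -1.53, standard error 0.25, adjusted p = 0.0252). *Hamp2* gave 4048, 6749.9 and 4367 in D2 *Hfe*-/- livers and 2994, 4276 and 3674 in B6 *Hfe*-/- livers, and *Hamp* gave 1111, 2027 and 1719 in D2 *Hfe*-/- livers and 10698, 7939.9 and 10258 in B6 *Hfe*-/- livers. By quantitative PCR the study found both genes lower in D2 *Hfe*-/- than in D2 WT livers in the samples of the arrays. In further mice, not put on arrays, it saw only a trend to lower levels. The *Hfe*-/- mice were bred in-house, so that origin and genotype cannot be told apart.

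**Figure D5:**
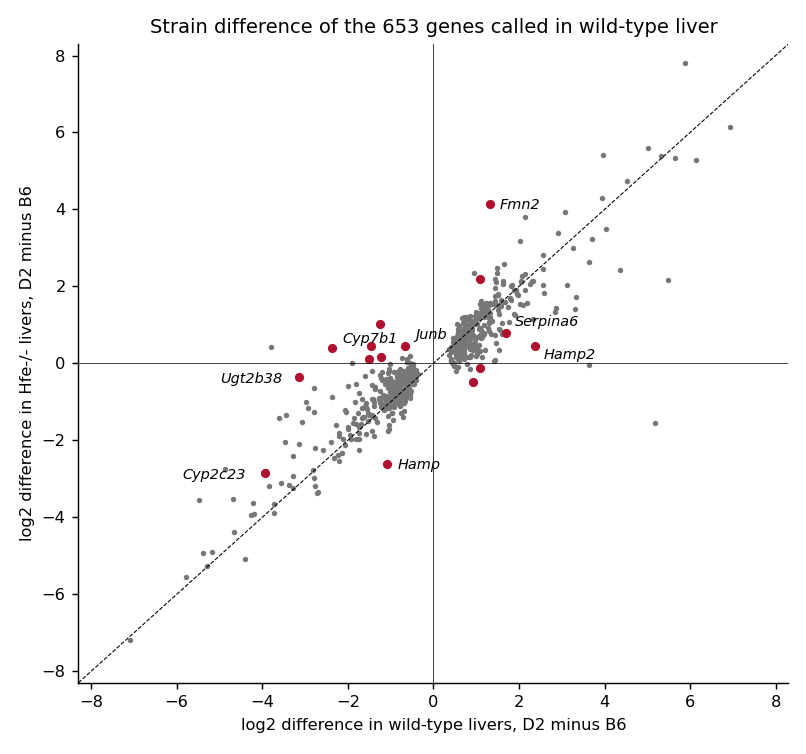
Log2 strain difference (D2 minus B6) of the 653 genes called in wild-type livers, in *Hfe*-/- livers (y axis) against wild-type livers (x axis), with the line of equal difference dashed. The 15 genes whose difference changed with genotype are in red, those described in the text with their names, and 629 of all points share the sign of the wild-type difference.

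In duodenum of wild-type mice the strains differed in 3.28% of genes. All B6 WT duodena were hybridized in one run and all D2 WT duodena in another, so that strain and run cannot be told apart there. This limit also holds for each comparison of liver with duodenum. Of the 653 liver genes, 492 had the same sign there and 156 were called the same way, 23.9% of the liver calls and 36.5% of the duodenal calls. The share of all genes with the same sign in both tissues was not counted. With their differences in duodenum in parentheses, *Efhd2* (-2.74), *Rpgrip1* (-3.57), *Xaf1* (5.88), *Ifi202b* (6.03), *H2-Ea* (8.09) and *Nnt* (1.53) were called in both tissues with the same sign. Calls in opposite directions were few, 2 among the genes higher in liver and 0 among the lower ones. The chemokine gene *Ccl9* and the fucosidase gene *Fuca2*, named for that reason, had the opposite sign in duodenum. *Ccl9* differed by 0.99 in liver and -1.52 in duodenum, and *Fuca2* by 1.22 in liver and -0.88 in duodenum. The difference between tissues passed its own test (called at 0.01) for 115 of the 653 genes, against 1.36% of all genes. Here too the liver difference that chose the genes is a term of the test, and the excess is no result. For *Cyp2c23* the strain difference was -3.93 in liver, against -0.04 in duodenum (liver minus duodenum -3.89, adjusted p = 4.93e-10), and for *Nlrp12* it was -7.09 in liver, against 1.14 in duodenum (liver minus duodenum -8.23, adjusted p = 9.29e-04). The call for *Fuca2* (1.22) did not hold with run as a block. Averaging the probe sets of each gene ended the call for *Fuca2* (1.31).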

How the data were processed

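The authors computed MAS5 signals (version not given in the sources used here), and deposited them as a linear intensity per probe set, with the trimmed mean of every array set to 100. Hybridization runs were inferred from the times in the deposited experiment files, a gap of over 15 minutes starting a new run. Here the log2 of each signal was taken, AFFX controls (64 of 45101 probe sets) were left out, and a probe set was kept if at least 3 arrays of liver or of duodenum reached 20. In R 4.3.3, limma 3.58.1 (lmFit, eBayes with a trend) was fitted to the 12 liver arrays in 4 groups and, separately, to the 12 duodenum arrays. Benjamini-Hochberg adjustment ran over all kept probe sets, and results were called at 0.01 (0.1 for the interaction with genotype). The S-score of the study needs probe-level values, which were not used here. Two-sided exact permutation p values of 3 against 3 cannot go below 0.1. A single gene symbol was given for 34958 probe sets, several for 932 and no symbol for 9211. Genes, lists and rules were chosen with earlier results of these data known. Named genes are the 15 largest differences each way among calls with a mean of at least 100, up to 4 members of each list with the smallest adjusted p, all members of the iron, heme and known-allele lists, and neighbour runs. A further 26 were named after their values had been seen. Whether the deposited replicate numbers pair mice was checked by correlation. Methods were tested on simulated data.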

Additional observations from a re-analysis of the deposited data

Results flagged for a closer look

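For 29 of all genes the strain difference was itself different in *Hfe*-/- and in wild-type livers by limma's interaction test (D2 minus B6 in *Hfe*-/- livers minus the same in wild-type livers, adjusted p of at most 0.1), with 3 mice a group, and 9 of them are genes named here. The interaction was -1.92 for *Hamp2* (adjusted p = 0.00933) and -1.53 for *Hamp* (adjusted p = 0.0252). For both genes the study's PCR on mice outside the arrays gave only a trend to lower levels in D2 *Hfe*-/- livers. For *Ugt2b38* it was 2.78 (adjusted p = 0.0046), the strains differing by -0.36 in *Hfe*-/- livers and by -3.13 in wild-type livers. For *Cyp7b1* it was 2.78 (adjusted p = 0.0973), with differences of 0.40 in *Hfe*-/- and -2.38 in wild-type livers. *Fmn2* had an interaction of 2.83 (adjusted p = 0.00884) and *Cyp2c23* one of 1.07 (adjusted p = 0.0642), with the wild-type sign kept in both. *Serpina6* had one of -0.90 (adjusted p = 0.062) and *Junb* one of 1.11 (adjusted p = 0.0655). The aldo-keto reductase gene *Akr1c19*, which was not called in wild-type livers (-0.26, adjusted p = 0.227), had one of -1.66 (adjusted p = 6.14e-04) and differed by -1.92 in *Hfe*-/- livers. The 3 D2 *Hfe*-/- livers shared a hybridization run with D2 WT 3, and the part of the run in these interactions was not tested.

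In liver and duodenum the strains differed in opposite directions for *Ccl9* (strain difference in liver minus that in duodenum 2.51, adjusted p = 1.24e-06) and *Fuca2* (2.09, adjusted p = 1.48e-06), by the test of the difference itself. Strain and hybridization run cannot be told apart in the wild-type duodena.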

How the results depend on the processing

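Against 1222 probe sets and 653 genes called, eBayes with no trend called 568 probe sets and 282 genes, run as a block 545 and 279, and an adjusted p of at most 0.05 called 2273 and 1216. SAM in its one-class form on differences of same-numbered arrays called 25 probe sets and 7 genes. Leaving out each array in turn gave 753 to 868 probe sets and 388 to 447 genes, with fewer arrays in the fit. In *Hfe*-/- livers eBayes with no trend called 586 probe sets, against 1326. Quantile normalization, 16 added before the log, dropping the filter or raising it to 100, the 6 wild-type arrays alone, a 1.5-fold minimum and the mean of the probe sets of a gene (564 genes) stayed within 1.5 times the main count. With replicate number as a block 1136 probe sets and 610 genes were called, but the numbers do not pair the mice, since deviations of same-numbered arrays correlated with r of -0.0196 to 0.0289. Of 129 named genes called, 62 were called in each of 15 fit settings and 0 changed sign. These settings leave out SAM and the changed thresholds. Lost calls numbered 50 with run as a block, 56 with no trend, 41 with some array left out, 24 with probe-set means, 9 with the replicate block, 4 with quantile normalization, and 2 each with no filter and with the 6 arrays alone. The cause of the lost calls was not tested. The number of arrays limits the precision, and signals under 20 lie near background.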

Other observations

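Of 780 abundant genes, with a mean signal of at least 1500 in one strain, 48 were called higher and 49 lower in D2 (12.4% against 5.02% of all genes), members of the lists among them. A gene could enter through the strain where its signal is high, so nothing is read from that excess. Of the 32 higher and 33 lower that the rule did not name, the 6 largest each way were taken after their values had been seen. *Aox3*, an aldehyde oxidase of liver, gave 282, 239 and 314 in D2 WT livers, against 2596, 2302 and 2072 in B6 WT livers (log2 difference -3.06, standard error 0.24, adjusted p = 9.84e-07). *Psen2*, a catalytic subunit gene of gamma-secretase, gave 383, 408 and 372 in D2 WT livers, against 2176, 1994 and 1972 in B6 WT livers (log2 difference -2.40, standard error 0.12, adjusted p = 1.05e-08). *Ndufa12*, a complex I subunit gene, gave 1637, 1679 and 1726 in D2 WT livers, against 4190.1, 4104 and 3788 in B6 WT livers (log2 difference -1.26, standard error 0.08, adjusted p = 1.52e-07). The actin-severing protein gene *Dstn* (-1.44), the phosphodiesterase gene *Gpcpd1* (-1.09) and *St3gal5*, which encodes the GM3 ganglioside synthase (-1.05), were lower too.

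Higher in D2 were *Prxl2a*, a peroxiredoxin-like gene, with 1715, 1587 and 1567 in D2 WT livers, against 419, 418 and 485 in B6 WT livers (log2 difference 1.88, standard error 0.09, adjusted p = 4.71e-09), and *Tpmt*, which encodes the enzyme that methylates thiopurine drugs, with 1805, 1458 and 1599 in D2 WT livers, against 536, 535 and 623 in B6 WT livers (log2 difference 1.52, standard error 0.11, adjusted p = 4.69e-07). The phosphatase gene *Ptp4a2* (1.28), *Pebp1*, which encodes the Raf kinase inhibitor (0.98), *Ccl9* (0.99) and *Ly6e*, an interferon-inducible surface protein gene (0.97), were higher too. In *Hfe*-/- livers *Prxl2a* differed by 1.91, *Tpmt* by 1.78, *Pebp1* by 1.34 and *Aox3* by -1.53. Fitting run as a block ended the calls for *Gpcpd1* (-1.06) and *St3gal5* (-1.04), and a fit without a mean-variance trend those for *Gpcpd1*, *St3gal5* and *Ly6e*. The call for *Ly6e* (0.66) did not hold when probe sets were averaged by gene. With arrays left out in turn the call did not hold for *Gpcpd1* without any single one of the 6 arrays (-1.16 to -1.04).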
